A study of Mus musculus with 12 samples.

Results

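The ARF and SAR1 GTPases are small GTP-binding proteins that start the formation of transport vesicles. Bound to GTP, they insert into a membrane and recruit coat proteins, tethers and lipid-modifying enzymes, and they release them once a GTPase-activating protein has triggered hydrolysis. SAR1 assembles the COPII coat at exit sites of the endoplasmic reticulum, ARF1 and its relatives recruit the COPI coat and clathrin adaptors at the Golgi, and ARL1 recruits golgin tethers at the trans-Golgi. Hepatocytes depend on this route to secrete albumin, apolipoproteins and clotting factors. The 9 genes described here are Arf1, Arf2, Arf3, Arf4, Arf5, Arf6, Sar1a, Sar1b and Arl1, out of 10607 genes in the table of normalised reads. They were taken by name, and the group was chosen because Arf1 footprints were lower in the knockout while its input was not. The KO against WT values of Arf1 are therefore given as a description, with no test. All 9 genes passed the filter on low values, a mean of at least 10 normalised reads in input and in footprints, as did 8994 genes in all.

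The livers of 6 mice were profiled, 3 wild type (WT) and 3 with a Mettl5 knockout (KO). By their numbers they were taken as 3 pairs, each from 1 litter. METTL5 methylates an adenosine of 18S rRNA, and the comparison asked whether its loss alters translation. Each liver gave 1 input library (RNA-seq of the lysate) and 1 library of ribosome-protected fragments (RPFs), obtained with micrococcal nuclease from lysates made in cycloheximide. The KO lacked Mettl5 exon 2 in the whole body, through a floxed allele made in C57bl/6 x 129S6 hybrid stem cells and the CMV-cre transgene, and the line was backcrossed to B6. The WT mice were littermates, and neither the cre status of the WT mice nor the age and sex of each mouse is given in the labels.

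Values are normalised reads, which are reads divided by 1 factor per library. The libraries held 2398804 to 5121304 input reads and 4623826 to 9184242 RPF reads over the genes of this table. Mettl5 itself had 38.5, 28.2 and 15.7 normalised reads in WT input and 8.55, 9.30 and 8.0 in KO input. In RPFs, Mettl5 had 58.4, 47.8 and 53.1 in WT and 8.34, 5.53 and 9.56 in KO, so the groups did not overlap in either assay. The 6 hepatocyte markers had at least 7359 counts in every input library, whereas the cholangiocyte keratins Krt7 and Krt19 had 0 to 3. Of the 4 cholangiocyte markers, 2 were detected in every input library. The summed counts of these 4 were 15 to 25 in WT and 28 to 49 in KO. As shares of the hepatocyte sum, the cholangiocyte sums overlapped between the genotypes. The summed counts of 5 stellate cell and fibroblast markers were 0.250% to 0.291% of the hepatocyte sum in WT and 0.313% to 0.375% in KO. The sums for Kupffer cell and macrophage markers were 0.233% to 0.309% in WT and 0.236% to 0.325% in KO, and those for liver endothelium were 0.222% to 0.326% and 0.288% to 0.315%. Whether these shifts play a part in the values below was not tested, and in whole liver fewer cells of a type and less RNA per cell cannot be told apart.

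The 9 coding sequences are short, between 525 and 594 bases, and closely related. Arf1 and Arf3 shared 83.6% of bases and 96.1% of translated residues, and Arf1 and Arf2 shared 80.5% and 95.6%. The class II pair Arf4 and Arf5 shared 78.7% of bases and 90.0% of residues, and Sar1a and Sar1b shared 78.8% and 90.9%. Arf6 was at 66.9% of residues against Arf1, Arl1 at 56.9% and Sar1a at 27.3%. The 30 bases that begin with the P-loop, the motif that holds the phosphates of GTP, show how a conserved protein motif can still be told apart in bases. The P-loop was located in each translated coding sequence by its pattern of glycines followed by lysine and a serine or threonine. A footprint from this stretch names its gene only where the bases differ, so it is shown for all 9 genes, in mm10, 5′ to 3′ on the coding strand. Capitals mark bases that differ from Arf1, which itself has none.

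Arf1: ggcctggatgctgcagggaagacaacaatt
Arf2: ggcTtAgatgcAgcTggCaaAacGacGatC
Arf3: ggcctggatgctgcCgggaagacCacCatC
Arf4: ggATtggatgctgcTggCaagacGacaatt
Arf5: ggcTtggatgcGgcTggCaagacTacCatC
Arf6: ggcctggaCgcAgcCggCaagacaacGatC
Sar1a: ggATtggaCAAtgcGggCaaAacCacTCtt
Sar1b: ggATtggatAAtgcCgggaaAacaacTTtG
Arl1: ggATtAgatgGtgcTggAaaAacaacaatt

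These windows differed from Arf1 in 4 of 30 bases for Arf3, in 5 for Arf4, in 6 for Arf6 and in 7 for Arf5 and Arl1. Arf2 and Sar1b differed in 9 and Sar1a in 11. Each lies within a single coding exon. That of Arf1 is at chr11:59213389-59213418 on the minus strand, that of Arf3 at chr15:98742642-98742671 on the minus strand, and that of Arl1 at chr10:88733608-88733637 on the plus strand.

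In this stretch the members can thus be told from each other, but Arf1 and Arl1 also have processed pseudogenes, copies of a spliced transcript inserted elsewhere in the genome. Gm19587 on chromosome 1 matched the Arf1 coding sequence at 517 of 535 aligned bases (96.6%), and Gm18541 on chromosome 9 matched that of Arl1 at 536 of 541 (99.1%). A further Arf1 pseudogene, AC127331.2, held more of the Arf1 coding sequence in 28-base windows than Gm19587 did, 277 against 216, and its sequence is not shown. The same P-loop stretch is shown for Gm19587 and Gm18541, where capitals would mark a base that differs from the parent gene and there is none. These copies lie at chr1:43888122-43888151 and chr9:63898333-63898362, both on the plus strand.

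Gm19587: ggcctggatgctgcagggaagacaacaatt
Gm18541: ggattagatggtgctggaaaaacaacaatt

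Of the 516 windows of 28 bases in the Arf1 coding sequence, 384 (74.4%) occurred base for base elsewhere in the genome, and of the 516 in Arl1, 370 (71.7%) did. The other members had few such windows or none. Arf2 had 18 of 516 (3.49%), Arf6 had 12 of 498 (2.41%) and Arf3 had 2 of 516 (0.388%), while Arf4, Arf5, Sar1a and Sar1b had 0. The 18 of Arf2 also lie in a processed pseudogene, Gm13733 on chromosome 2. The authors mapped RPFs with RiboToolkit at a maximum of 1 mapping place per read, so a footprint from a copied window need not have been counted. Their mapping allowed 2 mismatches, and windows that differ from a copy by so few bases are not in the shares given here. In uniquely mapped RNA reads the pseudogenes had 1 to 7 counts for Gm19587, 1 to 6 for AC127331.2 and 1 to 8 for Gm18541 over the 6 input libraries. Reads that match a copy and its parent equally are left out of those counts, so they cannot show how much RNA the copies make. None of these pseudogenes is among the genes of the normalised table.

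**Figure D1:**
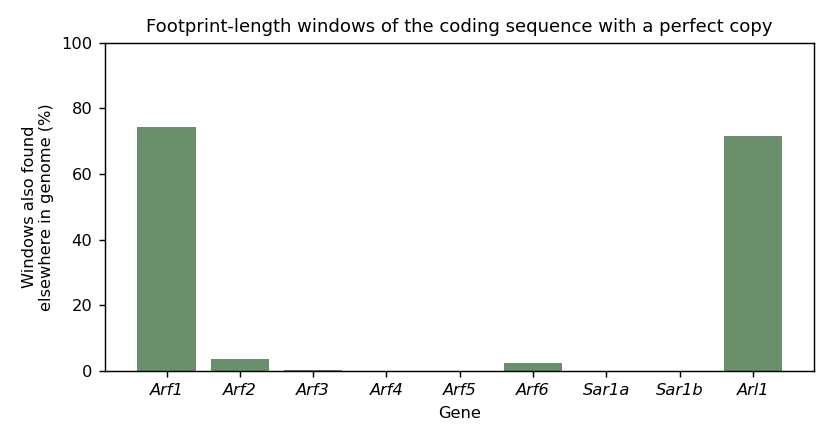
Share of the 28-base windows of each coding sequence (vertical axis, percent) that occur base for base elsewhere in the mm10 genome, for the 9 genes (horizontal axis). Arf1 (74.4%) and Arl1 (71.7%) stand far above the other 7, which reach at most 3.49%.

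The genes differed widely in footprint level. Per kilobase of coding sequence, WT RPFs were highest for Sar1b, at 2952 ± 284 normalised reads per kb (SD, n = 3 mice). SAR1B is the isoform needed to export large lipoproteins from the endoplasmic reticulum. Arf4 followed with 1688 ± 129 per kb, then Sar1a with 664 ± 92.4, Arf1 with 534 ± 85.8 and Arf5 with 488 ± 26.3. Arf3 had 304 ± 26.5 per kb, Arf6 had 271 ± 29.7, Arl1 had 207 ± 16.5 and Arf2 had 205 ± 21.6. The WT ranges overlapped between Sar1a and Arf1, Arf1 and Arf5, Arf3 and Arf6, and Arl1 and Arf2, so the order within those pairs was not larger than the spread between mice. The levels divide by the full coding length, also for Arf1 and Arl1, whose copied windows (74.4% and 71.7%) need not have been counted. Whether this alters their places in the order was not tested. Among the 10597 genes of the table with a coding sequence, the RPF level per kb of the 9 genes lay from percentile 81.8 (Arf2) to percentile 98.1 (Sar1b). Per kilobase of exon, WT input levels ran from 24.3 ± 7.28 normalised reads for Arf2 to 502 ± 57.3 for Sar1b, with Arf1 next at 202 ± 5.52.

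Arf1, the main ARF of the Golgi, recruits COPI and the clathrin adaptor AP-1. Its gene spans chr11:59211412-59228270. In input it had 413, 420 and 435 normalised reads in WT mice 1, 2 and 3 and 407, 421 and 384 in KO mice 1, 2 and 3. In RPFs it had 340, 282 and 248 in WT and 140, 175 and 162 in KO. Input levels overlapped between the genotypes, whereas every KO mouse had fewer RPFs than any WT mouse. The RPF mean was 290 ± 46.6 in WT and 159 ± 18.0 in KO, a log2 difference of −0.86 ± 0.146 (SE). The input difference was −0.039 ± 0.131. RPF over input, the translation efficiency (TE), was 0.823, 0.672 and 0.569 in WT and 0.343, 0.416 and 0.423 in KO, and its log2 difference was −0.79 ± 0.206. These counts rest on 331 to 480 RPF reads in WT and 170 to 285 in KO. Of the 516 windows of its coding sequence, 132 occur base for base nowhere else in the genome.

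Other genes also have copied coding sequence. Of 8985 genes with a coding sequence besides Arf1, 481 (5.35%) had over 50% of their windows in transcripts of another gene, and their median RPF log2 difference was −0.090, against −0.029 for the others. Among the 43 genes besides Arf1 past an adjusted p of 0.05 in RPFs, 11 were of this kind, all lower in KO. The other 32 split into 17 lower and 15 higher. With the major urinary protein (Mup) genes also left out, 6 of 472 such genes had passed, all lower in KO. The list of calls was unstable. Over all genes 44 passed in the main fit and 7 with the trend in coding GC content removed, 3 of them lower. Without KO mouse 2 there were 0 calls, and without KO mouse 1 there were 228. The part of shared windows in the Arf1 difference was not tested. Coding GC content, which moved with RPF differences across all genes (Spearman's rho 0.457 over 8986 genes, which are not independent replicates), was 52.1% for Arf1, near the median of 52.6%. With that trend removed, the Arf1 difference was −0.83.

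Arf2 and Arf3 are the other class I ARFs and have nearly the same protein sequence as Arf1. Arf3 showed no such pattern. Its RPFs were 149, 177 and 170 normalised reads in WT and 201, 138 and 154 in KO, and its input was 264, 273 and 277 in WT and 285, 254 and 261 in KO. The groups overlapped in both, and the RPF log2 difference was −0.021, with a 95% interval from −0.34 to 0.30. Arf2 had 99.3, 113 and 123 RPFs in WT and 89.7, 100.2 and 109.9 in KO. Its input was 97.2, 54.9 and 66.9 in WT and 44.1, 43.9 and 56.0 in KO, lower in KO in each of the 3 litters but overlapping between the groups. The input log2 difference of Arf2 was −0.58 ± 0.258, which did not pass (edgeR quasi-likelihood test, Benjamini-Hochberg adjusted p = 0.999). Arf2 is the lowest of the set in input, with 33 to 67 input reads a library.

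The class II ARFs, Arf4 and Arf5, act in the early secretory pathway between the endoplasmic reticulum and the Golgi. Arf5 was the single member with more footprints in every KO mouse than in any WT mouse. Its RPFs were 258, 280 and 253 normalised reads in WT and 329, 342 and 320 in KO, while its input was 297, 323 and 330 in WT and 319, 326 and 291 in KO. The RPF log2 difference was 0.32 ± 0.129, with a 95% interval from 0.054 to 0.59, and did not pass over all genes (limma, Benjamini-Hochberg adjusted p = 0.283). Arf5 has the second highest coding GC content of the set, 56.9%, and 1021 genes within 1 percentage point of it had a median difference of 0.11. With the GC trend removed, the Arf5 difference was 0.21 (limma, adjusted p = 0.670). Its TE ratio was 0.868, 0.867 and 0.766 in WT and 1.03, 1.05 and 1.10 in KO. Arf4 had 835, 929 and 970 RPFs in WT and 650, 987 and 793 in KO, with overlapping groups and a log2 difference of −0.19 (95% interval −0.51 to 0.13).

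Arf6, the ARF of the plasma membrane and recycling endosomes, had 125, 154 and 148 RPFs in WT and 95.2, 147 and 126 in KO. Its input was 158, 190 and 195 in WT and 205, 173 and 238 in KO. Both overlapped, and the RPF log2 difference of −0.23 had a 95% interval from −0.61 to 0.15. Arf6 has the most GC-rich coding sequence of the 9, at 58.5%, and with the GC trend removed its RPF difference was −0.39 (limma, adjusted p = 0.460).

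The SAR1 genes start COPII coats at the endoplasmic reticulum. Sar1b had 1561, 1823 and 1876 RPFs in WT and 1281, 1839 and 1469 in KO, and Sar1a had 336, 445 and 402 in WT and 348, 321 and 310 in KO. Neither separated the genotypes in RPFs. The RPF log2 differences were −0.21 (95% interval −0.56 to 0.15) for Sar1b and −0.27 (−0.60 to 0.070) for Sar1a. The TE ratio of Sar1a was 1.13, 1.10 and 1.15 in WT and 1.08, 0.769 and 1.02 in KO, without overlap, and its TE log2 difference of −0.25 had a 95% interval from −0.73 to 0.23 and was −0.11 with the GC trend removed. Sar1b made up 81.7% ± 1.13 of the summed SAR1 RPFs in WT and 82.1% ± 3.26 in KO (SD, n = 3), so the balance of the 2 isoforms differed by less than the spread between mice.

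Arl1 recruits golgins to the trans-Golgi, where they capture vesicles arriving from endosomes. Its gene spans chr10:88730858-88744094. Arl1 had 121, 103 and 112 RPFs in WT and 52.8, 85.4 and 82.2 in KO, and its input was 255, 232 and 215 in WT and 220, 203 and 248 in KO. As for Arf1, input overlapped while every KO mouse had fewer RPFs than any WT mouse. The RPF log2 difference was −0.63 ± 0.182, with a 95% interval from −1.01 to −0.25, and did not pass over all genes (limma, Benjamini-Hochberg adjusted p = 0.122). With the replicate block, in which litter is a term of the model, the adjusted p was 0.0528. Arl1 has the lowest coding GC content of the set, 42.2%, and the 347 genes within 1 percentage point of it had a median RPF difference of −0.27. With the GC trend removed, Arl1 was at −0.38 (limma, adjusted p = 0.561). Without KO mouse 1, the lowest in RPFs, the RPF difference was −0.41 and the TE difference −0.36. The TE ratio of Arl1 was 0.475, 0.445 and 0.523 in WT and 0.240, 0.420 and 0.332 in KO. It shares with Arf1 the copied coding sequence described above, and the part of the copies in its values was not tested.

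**Figure D2:**
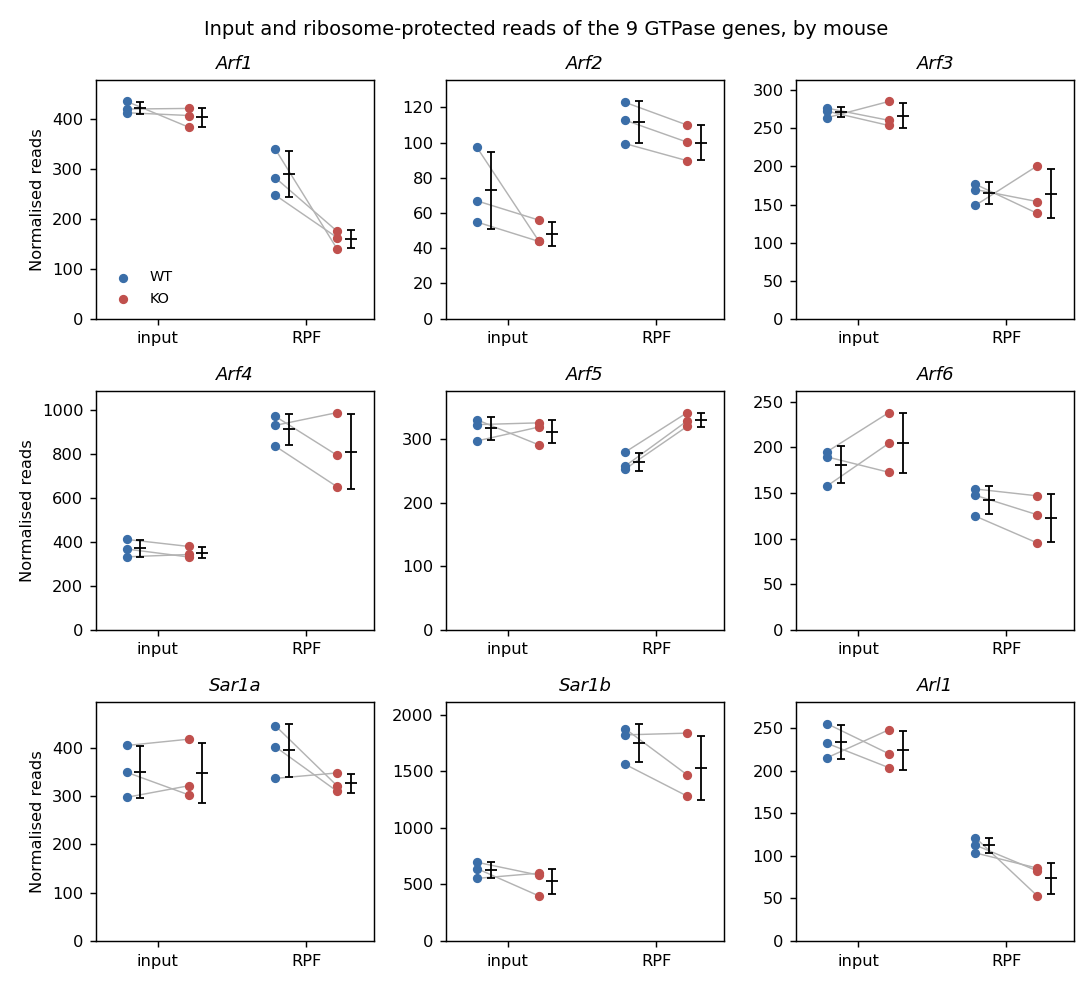
Normalised reads (vertical axes, linear from 0) in input and RPF libraries for the 9 genes, by mouse; blue points are WT, red points KO, grey lines join littermates, and black marks give the mean ± SD of 3 mice. The RPF groups do not overlap for Arf1 and Arl1 (lower in KO) or for Arf5 (higher in KO), and no input groups separate.

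Across the set, the groups did not overlap in RPFs for 3 of 9 genes and in input for 0 of 9. Among all 8994 genes tested, 19.8% had RPF groups without overlap and 9.25% had input groups without overlap. Leaving aside Arf1, 2 of 8 members were separated in RPFs (25%), a share near that of all genes. The TE ratio separated the genotypes for Arf5, Sar1a and Arl1 among those 8, and for 13.4% of all genes. In the limma test of RPFs, 0.489% of all genes passed an adjusted p of 0.05, and of the 8 members besides Arf1 0 passed. An unadjusted p under 0.05 was reached by 2 of the 8, Arf5 and Arl1, and by 1205 of 8994 genes in all (13.4%), and edgeR on the recovered whole reads also called 0 of the 8. Their median log2 difference was −0.20, with 7 of 8 below 0, against −0.033 over all genes tested. With the GC trend removed it was −0.029, with 6 of 8 below 0, against −0.018 over all genes. With the replicate block 3.26% of all genes passed in RPFs and again 0 of the 8 members. In input, 0% of 10057 genes passed by edgeR, and so did 0 of the 9 members. There 1 member, Arf2, had an unadjusted p under 0.05, as did 3.46% of all genes, and DESeq2 also called 0. In TE, 0% of the 8994 genes passed by limma, with 0 of the 9 members, also by edgeR on whole reads. Besides Arf1, Arl1 alone had an unadjusted TE p under 0.05, as did 4.70% of all genes, with a log2 difference of −0.57 (95% interval −1.11 to −0.028, adjusted p = 0.998). That fit did not pair the input and RPF libraries of a mouse. With them paired, Arl1 had an unadjusted p of 0.0637 (limma within mouse). In the paired fit 0 of the 8 were under 0.05, against 646 of 8994 genes. The TE differences of Arf2 (0.41), Arf5 (0.35) and Arf6 (−0.40) had intervals that include 0.

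**Figure D3:**
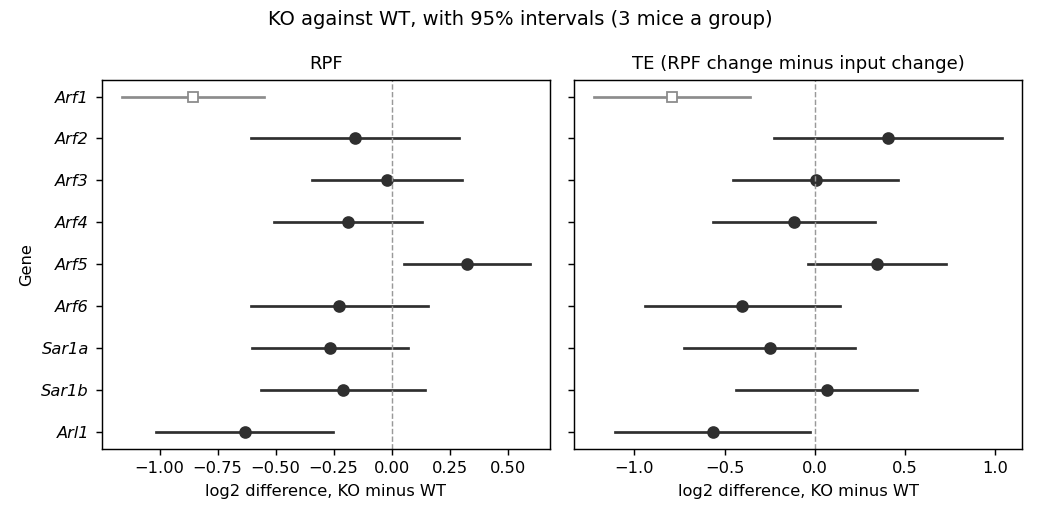
Log2 difference between KO and WT (horizontal axes) in RPFs (left) and in TE (right) for the 9 genes (vertical axis). Points are limma estimates and lines 95% intervals, with 3 mice a group. The fit covered all 12 libraries with a spread shared by input and RPFs. It did not pair the libraries of a mouse. The open square is Arf1, which was chosen on these values (−0.86 in RPFs), so its interval is a description with no test. Among the members besides Arf1, the RPF interval leaves out 0 for Arl1 (−0.63) and Arf5 (0.32).

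The shift within the ARF family can also be given as shares. Of the summed RPFs of the 6 ARF genes, Arf1 took 18.8%, 14.6% and 13.0% in WT mice and 9.29%, 9.27% and 9.75% in KO mice. Arf5 took 14.3%, 14.5% and 13.3% in WT and 21.9%, 18.1% and 19.2% in KO, so that Arf5 exceeded Arf1 in all 3 KO mice and in 1 of 3 WT mice. Arf4 held the largest part, 48.3% ± 2.28 in WT and 47.7% ± 4.52 in KO. In input the Arf1 share was 25.9% ± 0.731 in WT and 25.5% ± 0.996 in KO. The summed RPFs of the 6 genes were 1805, 1935 and 1911 in WT and 1504, 1890 and 1666 in KO, and the groups overlapped. These shares use the values Arf1 was chosen on and are a description.

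RPF over input within each mouse was averaged over both genotypes and set against the median gene. This is not the genotype difference on which the group was chosen. For Arf1, however, it holds the same RPF and input values, so its Arf1 value is a description. By limma 71.6% of all genes differed from the median gene at an adjusted p of 0.05, and 7 of the 9 members did. That count includes Arf1 and is near the share of all genes, so it is not a result about the members. Without length, Sar1b had the highest ratio of the set, 1.43 ± 0.104 log2 units above the median gene (SE, 6 mice, adjusted p = 1.54e-05). Arf4 was 1.17 ± 0.0989 above it (adjusted p = 2.73e-05) and Arf2 0.77 ± 0.141 (adjusted p = 0.00165). Arf1 was 1.03 below the median gene (log2 value −1.03 ± 0.115), Arf3 was at −0.79 ± 0.104 and Arf6 at −0.62 ± 0.134. Arl1 was lowest at −1.41 ± 0.132 (adjusted p = 4.32e-05). Arf5 (−0.17 ± 0.0922) and Sar1a (−0.028 ± 0.104) did not pass. All 6 mice were below the median gene for Arf1, Arf3, Arf6 and Arl1 and above it for Arf4 and Sar1b. In the WT mice alone Arf1 was at −0.63, and in the KO mice alone at −1.42. Arl1 was at −1.13 in WT mice and −1.69 in KO mice, past the threshold in both. Arf2 was not past it in the WT mice alone (0.56, limma, adjusted p = 0.0906).

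Length changed this picture. When RPFs were taken per coding length and input per exon length, Arf3 moved from −0.79 to 0.79 and Sar1a from −0.028 to 1.05, both then above the median gene, and Arf4 moved to 2.33. Arf2 moved to 1.66 and Sar1b to 0.94, so Sar1b then ranked below Arf4, Arf2 and Sar1a. Arf1 (−0.66) and Arl1 (−0.86) stayed below it, as did Arf6 (−0.65). When only the coding length in windows found in no other gene was counted, Arf1 turned to 1.20 ± 0.105 and Arl1 to 0.82 ± 0.121. All RPF reads stayed in this value and only the length changed, so the divisor alone set these turns of sign. The value holds only if no footprint from a shared window was counted, which was not tested. Under that measure Arf1, Arf2 (1.604) and Arf3 (0.69) all stood above the median gene, and Arf6 (−0.72) was the 1 member that passed below it. The windows enter only the RPF side of the ratio. This alternative was added after the data were seen.

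**Figure D4:**
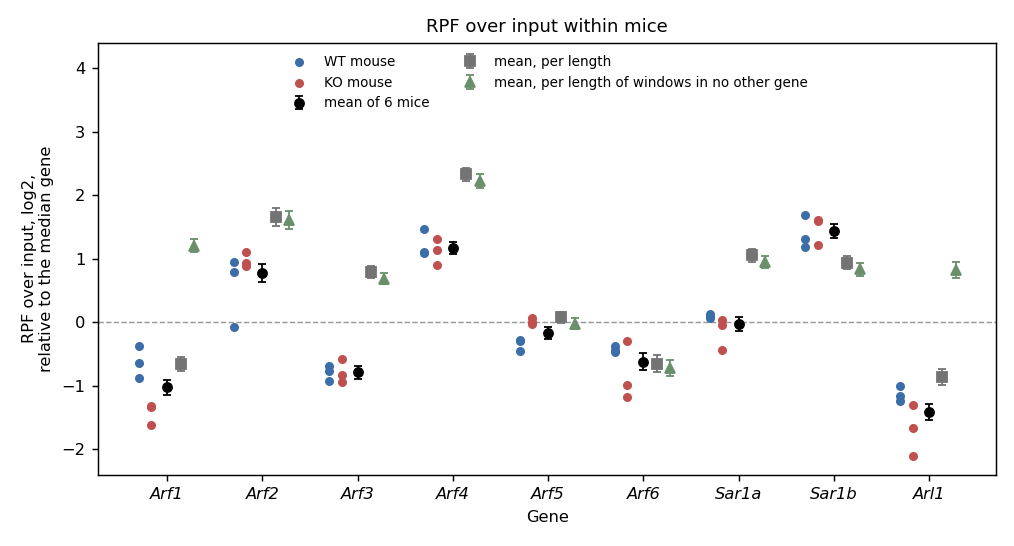
RPF over input on the log2 scale relative to the median gene (vertical axis) for the 9 genes (horizontal axis); blue and red points are single WT and KO mice, and black circles, grey squares and green triangles are means ± SE of 6 mice without length, per length, and per length of windows in no other gene. Arf1 and Arl1 lie below 0 without length and per length, and at 1.20 and 0.82 per length of windows in no other gene. That last measure keeps all RPF reads and changes only the length.

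The partners of these GTPases were taken from 8 lists of 154 genes, of which 127 were tested in RPFs. None of the 127 passed in RPFs by limma, where 17 (13.4%) had an unadjusted p under 0.05, the same share as among all genes, and edgeR on whole reads called 0 of 137. In input 0 of 132 passed by edgeR (4 with an unadjusted p under 0.05, 3.03% against 3.46% of all genes, and 0 by DESeq2). In TE 0 of 127 passed by limma (6 with an unadjusted p under 0.05, 4.72% against 4.70%). Over the lists, 78 of 127 RPF differences were below 0, with a median of −0.063, against 4853 of 8994 and −0.033 for all genes tested. List medians in RPFs ran from −0.16 for the ER-Golgi cargo receptors (19 tested) to 0.015 for the ARF GTPase-activating proteins (19 tested). With the replicate block, 5 of the 127 (3.94%) passed in RPFs, 4 lower and 1 higher, a share near the 3.26% of all genes and so not a result about the lists.

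Copb2, a subunit of the COPI coatomer that ARF1 recruits, had 1174, 1057 and 1033 RPFs in WT and 692, 858 and 769 in KO, a log2 difference of −0.50 (limma with replicate block, adjusted p = 0.0417). Of the 9 COPI genes tested, 6 were below 0, with a median of −0.079. Tfg and Sec16b, which organise the exit sites where SAR1 builds COPII, differed by −0.57 (limma with replicate block, adjusted p = 0.0270) and −0.59 (adjusted p = 0.0393). Of 14 COPII and exit site genes, 11 were below 0 and the median was −0.10. Sec22b, a SNARE for transport between the endoplasmic reticulum and the Golgi, differed by −0.59 (limma with replicate block, adjusted p = 0.0434). Arl4d, an ARF-like protein of the plasma membrane, was higher by 0.93 (limma with replicate block, adjusted p = 0.0165), with 66.2, 94.7 and 197 RPFs in WT and 126, 219 and 316 in KO.

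Those 5 calls did not hold when the trend with coding GC content was removed in the same paired model. The log2 differences were then −0.33 for Copb2 (limma with replicate block, adjusted p = 0.290), −0.46 for Tfg (adjusted p = 0.117), −0.61 for Sec16b (adjusted p = 0.0786), −0.50 for Sec22b (adjusted p = 0.163) and 0.75 for Arl4d (adjusted p = 0.0913). In input, all 5 genes had overlapping groups. In the lists without a call, the gene with the smallest RPF p was Cyth4 among the exchange factors (0.75, limma adjusted p = 0.375), Git2 among the GTPase-activating proteins (0.57, adjusted p = 0.302), Ap1g1 among the effectors (−0.40, adjusted p = 0.177) and Tmed5 among the cargo receptors (−0.47, adjusted p = 0.203).

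**Figure D5:**
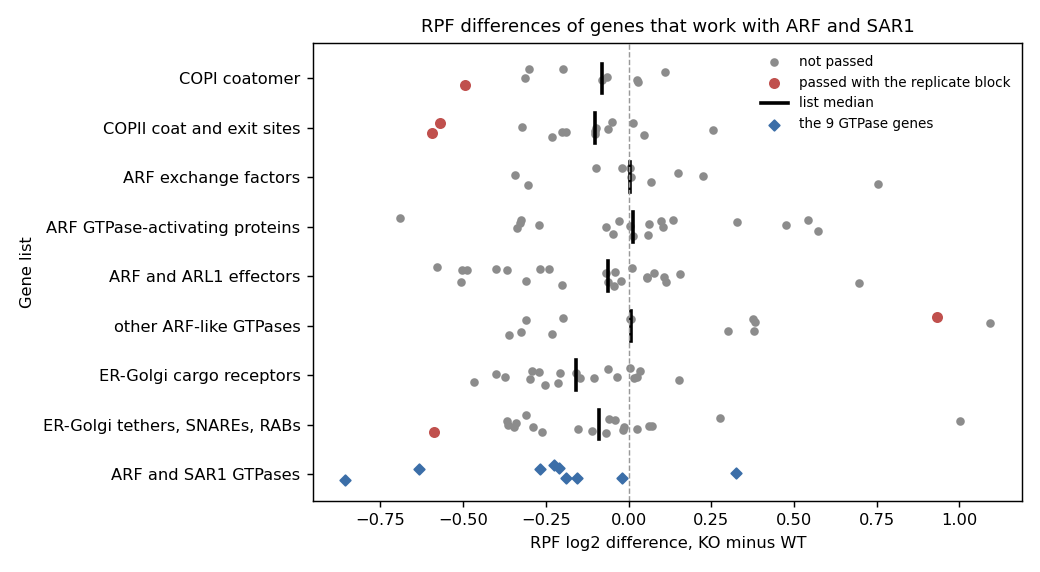
RPF log2 difference between KO and WT (horizontal axis) for 127 partner genes in 8 lists and for the 9 GTPase genes (vertical axis); each point is a gene, black bars are the medians of the 8 lists, diamonds are the GTPase genes, and red points passed with the replicate block. Of the 5 red points, 4 (Copb2, Tfg, Sec16b, Sec22b) lie near −0.5 or below and Arl4d lies at 0.93, while the medians of the 8 lists run from −0.16 to 0.015.

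The genes whose RPF values over the 6 libraries were most like those of Arf1 were Dlst (Pearson's r 0.997), a subunit of the 2-oxoglutarate dehydrogenase complex, Birc3 (0.996), Mal2 (0.993), Mfsd11 (0.992) and Gtf2h3 (0.991). As a description of the same 6 libraries, 200 of 8993 genes (2.22%) had an r above 0.9. Arl1 was the member most like Arf1 (0.897) and Arf5 the least (−0.870), and the others lay between −0.23 and 0.52. The likeness includes the difference between genotypes on which Arf1 was chosen.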

How the data were processed

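The input counts deposited by the authors are whole read pairs per gene (STAR 2.7.3a on mm10, unique reads, featureCounts by strand over exons). The signal in the authors' deposited table is reads divided by 1 factor per library, from which 100% of values were recovered as whole reads within 0.01 reads. RPFs were mapped by the authors with RiboToolkit without duplicate removal. The authors' fold change and p-value columns were not used. For RPF and TE, limma 3.58.1 was fitted to log2(value + 1) with 4 group means over 12 libraries, and for input edgeR 4.0.16 (TMM, robust quasi-likelihood) was run in R 4.3.3, all two-sided with Benjamini-Hochberg adjustment over all genes. The design had assumed a length-normalised unit. Fold changes on this scale understate those of low genes. Fits were tested on simulated data. Coding sequences and windows came from GENCODE vM21 and the GRCm38 genome. Mice with the same number in their labels were taken as littermates, and the replicate block pairs mice by that number. Deviations from group means correlated between littermates at 0.082 to 0.127 in input and 0.144 to 0.242 in RPFs. Replicates differed by more than counting noise (chi-square per degree of freedom 5.81 to 39.6). Members and lists were chosen with earlier results of these data known. Named partner genes were those past an adjusted p of 0.05 with or without the block (at most 4 a list), otherwise the smallest RPF p in a list.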

Additional observations from a re-analysis of the deposited data

How the results depend on the processing

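The count of members past the threshold in RPFs was 1, namely Arf1, which was chosen on these values, so the count restates the choice and nothing is read from it. It ranged from 0 to 1 when each mouse was left out (0 without WT mouse 1, WT mouse 2, KO mouse 2 or KO mouse 3), and the Arf1 difference from −0.96 to −0.74. The replicate block raised the partner genes past the threshold in RPFs from 0 to 5 and changed no other count of members or partner genes. Over all genes it raised the calls in RPFs from 44 to 293 of 8994 and in input from 0 to 2 of 10057. Small RPF differences changed sign. Arf2 was at 1.05e-05 with the GC trend removed, with or without the block, and Arf3 at 0.029 by edgeR and between −0.17 and 0.094 when each mouse was left out. In RPF over input, Arf1 (1.20) and Arl1 (0.82) turned positive per length of unshared windows, as did Arf3 (0.69) and Sar1a (0.95), and per length Arf3 (0.79), Sar1a (1.05) and Arf5 (0.079) did. Arf5 was at 0.011 in KO mice alone and Sar1a at 0.093 in WT mice alone, and Sar1a ranged from −0.074 to 0.046 when each mouse was left out. The lengths themselves set the turns per length, and for the other changes the cause was not tested. With 3 mice a group, the 95% intervals of the members in RPFs reached 0.27 (Arf5) to 0.45 (Arf2) log2 units on either side. These intervals are not adjusted for the number of genes. Arf5 (0.32) and Arl1 (−0.63) exceeded their own half-widths (0.27 and 0.38) and did not pass, so the differences that could pass over all genes are larger.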
